A study of Homo sapiens with 8 samples.

Results

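Nascent transcription in IMR90 cells treated with metaICM was compared with that in untreated control cells by factory RNA-Seq. IMR90 is a line of human fetal lung fibroblasts, the cells that make the connective tissue of the lung, and it is widely used to study replicative senescence. The comparison takes 4 of the 8 factory RNA-Seq libraries, namely the 2 titled MetaICM and the 2 titled young, and was chosen by those titles; all 28265 genes of the count table entered it, and 15904 of them had enough reads to be tested. The control is described as low passage, wild type and untreated, and the MetaICM group as low passage and metaICM-treated. ICM stands for inflachromene, a small molecule that binds the chromatin proteins HMGB1 and HMGB2. What metaICM is, its dose and the length of the treatment are not given in the sources used here, so it is called by its title throughout. The other 4 libraries come from low passage IMR90 cells after 3 or 6 days of ICM, 2 libraries each, and serve only to show where MetaICM differs from them.

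Factory RNA-Seq isolates the RNA that is still attached to the transcription machinery in the nucleus, so it is meant to read transcription more directly than total RNA does. The labels list the RNA as poly(A) RNA, and reads were counted over exons, so nascent and finished transcripts of a gene cannot be told apart in these counts. Whether the paired libraries of a group came from separate cultures is not stated, and the p-values below therefore measure only the spread between these libraries. Passage, culture time and handling of the MetaICM and control cells are likewise not given separately, and cannot be told apart from the treatment.

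A cell that leaves the cell cycle switches off a large set of genes that act together in DNA replication and mitosis, and this loss, together with induction of the CDK inhibitor p21 and release of cytokines, proteases and matrix proteins, is what is known as senescence. In fibroblasts, loss of HMGB2 and of lamin B1 accompanies it. The p53 pathway raises p21 in answer to DNA damage and other stress, and the interferon response raises antiviral genes through a short promoter element.

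The control libraries held 17595574 and 12095123 counts assigned to genes and the MetaICM libraries 20415790 and 23166405, within a range of 12095123 to 23166405 over all 8. Levels are given as CPM, read counts scaled to a common library size across the 8 libraries. Across genes, Pearson's r of log2 CPM was 0.988 between the control libraries and 0.996 between the MetaICM libraries, and the median absolute difference between the paired libraries was 0.21 on the log2 scale for control and 0.11 for MetaICM. The control pair was thus the more variable of the pairs used here, and several genes below have control libraries that lie far apart. Each MetaICM library correlated with each control library at 0.966 to 0.979, and with each library of 6 days of ICM at 0.951 to 0.955; genes are not independent replicates, so these values are descriptions.

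The fibroblast label was checked against marker genes. Of 14 fibroblast markers 12 were tested, and their summed level was 23081 to 23520 CPM in control and 20510 to 21511 CPM in MetaICM, with VIM, the intermediate filament vimentin, higher (log2FC 0.68) and FAP, the fibroblast activation protein, lower (log2FC -0.79). Epithelial markers summed to 70.4 to 106.7 CPM in control and 69.7 to 72.7 CPM in MetaICM over 15 genes, with KRT14 and NKX2-1 at 0 in every one of these libraries. Endothelial markers summed to 187 to 194 CPM in control and 223 to 236 CPM in MetaICM, and most of that sum was TEK. Of the 4 tested, 1 had a log2FC above 0 and 3 below it, with a median of -0.53, and 0 were called. Immune cell markers were near the floor but moved, from 7.95 to 8.63 CPM in control to 17.2 to 17.6 CPM in MetaICM. Their sum was higher still with ICM, at 20.8 to 25.2 CPM at 3 days and 20.3 to 25.1 CPM at 6 days. Of the 3 tested of 12, CD68 (log2FC 1.41) and CD14 (log2FC 1.44) were higher in MetaICM than in control, while CD3E, CD3D and MS4A1 were at 0. CD68 shares 1132 exon bases with genes on the opposite strand. Without control replicate 1, without either MetaICM library or with an offset for GC content and exon length 1 of the pair was called.

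Of the 15904 genes tested, 1179 (7.41%) were higher and 1430 (8.99%) lower in MetaICM at an adjusted p under 0.05 and an absolute log2FC over 0.6 (edgeR quasi-likelihood test, Benjamini-Hochberg). The changes were mostly of moderate size. The median log2FC of the called genes was 0.82 among the higher and -0.96 among the lower, and 358 and 656 of them, respectively, moved by more than 1 on the log2 scale. Over all genes tested the median was -0.00, and the middle of the distribution ran from -0.34 to 0.31 between the quartiles. Of the called genes, 1179 of those higher and 1407 of those lower had MetaICM and control libraries that did not overlap. This count also required at least 10 counts in each library of the higher group, so the other lower genes need not overlap. A call on 2 libraries a group largely implies such separation, so the count adds little, and the share over all genes tested was not computed. In bulk samples fewer cells of a type and less RNA per cell cannot be told apart, which holds for every level below. The number of calls depended on single libraries: without MetaICM replicate 2 there were 469 higher and 580 lower genes, without MetaICM replicate 1 there were 816 and 807, and without control replicate 1 there were 2116 and 1970.

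**Figure D1:**
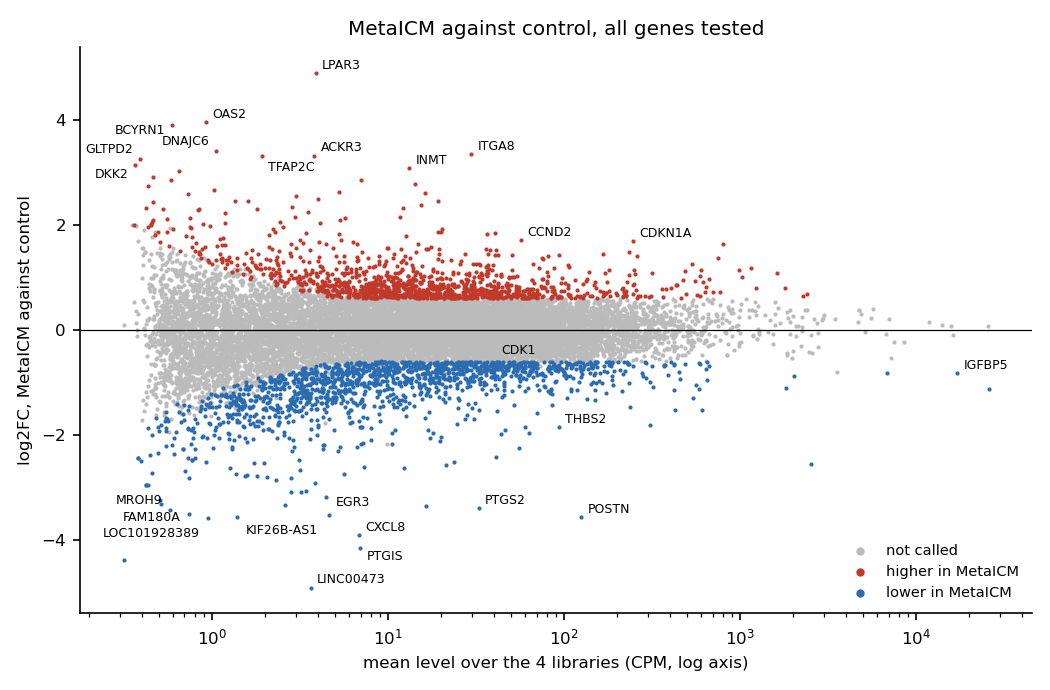
Log2FC of MetaICM over control (y axis) against the mean level over the 4 libraries in CPM on a log axis (x axis) for the 15904 genes tested, 1 point per gene, with called genes coloured by direction and some named genes labelled. Called genes lie on both sides, 1179 above and 1430 below, with LPAR3 (4.90) and LINC00473 (-4.91) at the ends among the labelled genes.

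Genes of chromosome segregation fell by up to about 1 on the log2 scale, and histone genes did not pass the test. Of 32 kinetochore and spindle genes 18 fell and none rose, which is 56.3% against the 8.99% of all genes that were lower, with a median log2FC of -0.64. Without MetaICM replicate 1 the number lower was 12. Of 26 mitotic kinases, cyclins and regulators 6 fell and none rose (23.1%, median -0.45). This count rose without control replicate 2 and dropped without either MetaICM library. Of 39 DNA replication genes 2 fell, RFC3 (log2FC -0.67) and POLE2 (-0.63), which encode a clamp loader subunit and a polymerase epsilon subunit; their share (5.13%) was below that of all genes lower, although the median was -0.22. Without either MetaICM library none of them was lower, and without control replicate 2 there was 1.

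Most of the mitotic genes named here fell to similar levels in both MetaICM libraries, BUB1 less so. TOP2A, the topoisomerase that untangles sister chromosomes (chr17:38544777-38574148, hg19), was at 841 and 870 CPM in control and at 455 and 442 CPM in MetaICM, so that the groups stood well apart (log2FC -0.95, SE 0.12, adjusted p = 0.000595). CENPE, a kinetochore motor (chr4:104026968-104119500), was at 304 and 320 CPM against 157 and 158 CPM (log2FC -1.0, SE 0.11, adjusted p = 0.00027). For the checkpoint kinase gene BUB1 the levels were 98.9 and 102 CPM in control and 49.7 and 60 CPM in MetaICM (log2FC -0.89, SE 0.12, adjusted p = 0.00105). ASPM, a spindle pole protein, was at 563 and 623 CPM in control and 319 and 306 CPM in MetaICM (log2FC -0.94). KNL1, the kinetochore scaffold on which BUB1 docks, had a log2FC of -0.95. In each of these genes both MetaICM libraries lay below both control libraries, a separation that the naming rule required. CDK1, the kinase that drives entry into mitosis, was at 50.3 and 45.1 CPM in control and at 32.6 and 34.5 CPM in MetaICM; its log2FC of -0.53 (SE 0.12, adjusted p = 0.0104) fell short of the size required of a called gene.

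In the cells given ICM for 6 days these genes stood far lower. CDK1 was at 2.8 and 3.82 CPM, TOP2A at 46.9 and 49.1 CPM and KNL1 at 8.4 and 8.98 CPM there. Tested directly against 6 days of ICM, 31 of the 32 kinetochore and spindle genes were higher in MetaICM (median log2FC 3.13), 24 of 26 mitotic regulators (2.97) and 35 of the DNA replication genes (1.66), where 15.7% of the 16036 genes tested were higher and 12% lower. Against 3 days of ICM, where 13.1% of 16209 genes were higher and 10.3% lower, the kinetochore and spindle list had 31 higher with a median of 2.93. MetaICM thus lay between control and ICM for these lists, nearer to control.

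A short promoter element known as the CHR, which holds many mitotic genes silent outside the dividing phase of the cycle, was looked for in the 250 bases before the start of each gene (RefSeq promoters, GRCh38.p14, either strand, letters TTTGAA). It occurred in 13.6% of all 27305 promoters, in 14 of 30 kinetochore and spindle genes with a promoter in the table (46.7%) and in 10 of 18 mitotic regulators. Among the tested genes with a promoter, 14.9% of those lower in MetaICM held it, 8.74% of those not called and 5.96% of those higher. The letters are mostly A and T, and calls also followed GC content of exons. In the quintile with the lowest GC 14.7% of genes were lower and 2.51% higher. In that with the highest GC 3.30% were lower and 15.8% higher. The part of base composition in the shares with the element was not tested. The element was chosen after these results were known, and a match of the letters is a description, not a binding site. Within the kinetochore list 7 of 14 genes with the letters fell, and 10 of 16 without them. Stretches around the match are shown for ASPM (chr1:197146752-197146807, minus strand), for KIF11 (chr10:92593077-92593129, plus strand) and for KIF18A (chr11:28108157-28108191, minus strand), a spindle organiser and a pair of spindle motors that all fell in MetaICM; capitals mark the element or its reverse complement.
ASPM: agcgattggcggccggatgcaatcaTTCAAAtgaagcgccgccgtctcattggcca
KIF11: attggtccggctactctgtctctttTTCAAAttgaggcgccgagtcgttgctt
KIF18A: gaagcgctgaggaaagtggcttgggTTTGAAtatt
In ASPM and KIF11 the element is read as its reverse complement, in KIF18A as TTTGAA. KIF11 was at 143 and 148 CPM in control and 85.8 and 88.9 CPM in MetaICM (log2FC -0.75), and KIF18A at 72 and 79.3 CPM against 39.7 and 41.7 CPM (log2FC -0.91); KIF11 and KIF18A were chosen after their values were seen.

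Genes of homologous recombination and of the Fanconi repair pathway mend breaks and cross-links during S phase. Of 18 such genes 6 fell (33.3%, median log2FC -0.47) and none rose. Over left-out libraries the median ran from -0.49 to -0.44, with fewer genes lower without either MetaICM library. BRCA2, which loads the recombinase, was at 118 and 117 CPM in control and at 60.4 and 59.2 CPM in MetaICM (log2FC -0.99, adjusted p = 0.00027). BRIP1, a helicase that binds BRCA1, was at 110 and 120 CPM against 52.6 and 53.7 CPM (log2FC -1.13, adjusted p = 0.000173). In both genes the spread within either group was small beside the distance between the groups. Of 23 cohesin and condensin genes 5 fell (21.7%), among them the cohesin loader NIPBL (log2FC -0.68) and the cohesin release factor PDS5B (-0.78), and with an offset for GC content and exon length 1 of them was lower; without control replicate 2 or MetaICM replicate 1 there were 3, and without MetaICM replicate 2 there were 2. Of 10 genes of nucleotide supply, RRM2B and SAMHD1 rose and none fell, and without MetaICM replicate 2 there was 1 higher.

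None of 54 replication-dependent histone genes passed the test, with a median log2FC of -0.06; with the offset for GC content and exon length 3 were lower and the median was -0.29. H1-5, a linker histone, was at 110 and 97.6 CPM in control and 75.7 and 97.7 CPM in MetaICM, so that the groups met (log2FC -0.27, SE 0.13, adjusted p = 0.15). At 6 days of ICM it was at 2.53 and 3.08 CPM. Directly against that group, 51 of the histone genes were higher in MetaICM, with a median log2FC of 3.48.

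Among the chromatin proteins that are lost in senescent fibroblasts, HMGB1 and HMGB2 did not pass the test in MetaICM. HMGB2 was at 43.5 and 34.1 CPM in control and at 34.5 and 40 CPM in MetaICM, which overlap (log2FC -0.08, SE 0.14, adjusted p = 0.711), and the sign of this value turned without control replicate 1 (0.11) and without MetaICM replicate 1 (0.05). At 6 days of ICM it was at 4.47 and 3.72 CPM, and the direct log2FC of MetaICM over that group was 3.18. HMGB1 was at 115 and 108 CPM against 105 and 125 CPM (log2FC 0.03, SE 0.12, adjusted p = 0.87). The Polycomb methyltransferase EZH2 had a log2FC of -0.34 (adjusted p = 0.056), the insulator protein CTCF -0.44 (0.0229) and the maintenance DNA methyltransferase DNMT1 -0.29 (0.0657), none of them called. Of 27 genes of this list 2 rose (7.41%) and 3 fell (11.1%), close to the 7.41% and 8.99% of all genes tested. HMGA1, an architectural protein of senescence-associated chromatin, rose from 146 and 96.9 CPM to 224 and 238 CPM (log2FC 0.91, SE 0.16, adjusted p = 0.00379) but lost its call with the offset for GC content and exon length. LMNA, which encodes lamins A and C of the nuclear envelope, rose from 548 and 349 CPM to 855 and 920 CPM (log2FC 0.97, SE 0.18). CBX5, the heterochromatin protein HP1 alpha (log2FC -0.65), HELLS, a chromatin remodeller (-0.80), and the deacetylase gene HDAC9 (-0.61) fell. With the offset the calls of CBX5 and HDAC9 were lost too and 1 gene of the list was lower, as was the case without either MetaICM library.

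Targets of p53 rose. Of 36 tested, 12 were higher (33.3%, against 7.41% of all genes) and none was lower, with a median log2FC of 0.50 and 32 of 36 above 0. The number higher went up without control replicate 1 and down without either MetaICM library. CDKN1A, which encodes p21 (chr6:36644240-36655109, hg19), was at 138 and 94.2 CPM in control and at 365 and 394 CPM in MetaICM (log2FC 1.69, SE 0.16, adjusted p = 0.000133). Both MetaICM libraries lay far above both control libraries, and below the 804 and 793 CPM of 6 days of ICM (log2FC of MetaICM over that group -1.08). SPATA18, a mitochondrial quality control gene, rose from 6.73 and 5.24 CPM to 18.3 and 17.2 CPM (log2FC 1.54). FDXR, the mitochondrial ferredoxin reductase, rose from 12.9 and 10.1 CPM to 28.4 and 29.6 CPM (log2FC 1.31). For BTG2, an antiproliferative gene, the levels were 3.45 and 3.85 CPM in control and 9.08 and 10.3 CPM in MetaICM (log2FC 1.40, SE 0.20). BAX, the executioner of mitochondrial apoptosis, was at 21.8 and 16.6 CPM against 45.2 and 47.7 CPM (log2FC 1.25). RRM2B, a ribonucleotide reductase subunit, had a log2FC of 1.08. MDM2, the ligase that degrades p53, was at 283 and 227 CPM in control and 331 and 317 CPM in MetaICM, a log2FC of 0.33 (SE 0.12, adjusted p = 0.0741) that was not called. At 6 days of ICM MDM2 was at 796 and 855 CPM. The targets therefore did not all move alike: on the log2 scale MDM2 stood nearer to control and CDKN1A nearer to 6 days of ICM.

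All 3 D-type cyclins rose, the subunits that activate CDK4 and CDK6 in early G1. CCND2 (chr12:4382928-4414518) was at 24.5 and 28.4 CPM in control, at 86.5 and 87.8 CPM in MetaICM (log2FC 1.71, SE 0.12, adjusted p = 3.76e-05) and at 14.8 and 16.4 CPM at 6 days of ICM. CCND1 was at 463 and 369 CPM in control, at 1081 and 1096 CPM in MetaICM (log2FC 1.37, SE 0.14, adjusted p = 0.000196) and at 614 and 605 CPM at 6 days of ICM. MetaICM held the highest level of both genes among these 3 groups, without overlap. CCND3 rose from 37.7 and 21.1 CPM to 52 and 57.5 CPM (log2FC 0.87, SE 0.21, adjusted p = 0.0131), and this call was lost without control replicate 2. Among the 15 CDK inhibitors and D- and E-type cyclins these 3 and CDKN1A were the 4 higher genes (26.7%), and none was lower.

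In the BCL2 family 3 of 13 genes rose (23.1%) and 2 fell (15.4%), against 7.41% and 8.99% of all genes. The pro-apoptotic genes did not share a direction. BCL2L11, which encodes BIM, fell from 11.7 and 14.1 CPM to 3.37 and 2.71 CPM (log2FC -2.10, SE 0.21, adjusted p = 0.000194), and BMF fell as well (log2FC -0.99), while BAX (1.25) and BAD (0.90) rose, as did the anti-apoptotic BCL2L1 (0.63). BAD and BCL2L1 lost their calls with the offset for GC content and exon length, which left 1 gene higher. Without MetaICM replicate 2 there was also 1 higher, without control replicate 1 there were 5, and without MetaICM replicate 1 there were 2 higher and 1 lower.

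Interferon-stimulated genes rose. Of 36 tested, 14 were higher (38.9%, against 7.41% of all genes) and none was lower, with a median log2FC of 0.49; leaving out single libraries gave 10 to 17 higher. OAS2, which makes the second messenger that activates RNase L, had 1 and 2 counts in the control libraries and 35 and 40 in the MetaICM libraries, a ratio of 16.9 after scaling for depth (95% interval from counting error alone, 5.55 to 83.6; fitted log2FC 3.97, adjusted p = 0.00148). MX1, an antiviral GTPase (chr21:42792485-42831141), was at 2.02 and 2.21 CPM in control and 9.87 and 8.79 CPM in MetaICM (log2FC 2.13, SE 0.22, adjusted p = 0.000258). Its neighbour MX2 was at 0.952 and 0.983 CPM against 3.23 and 3.94 CPM (log2FC 1.87, SE 0.31). All of these are low levels in which both MetaICM libraries stood clear of control, which the naming rule required. IFI6 rose from 2.38 and 3.69 CPM to 8.88 and 10.4 CPM (log2FC 1.68), and ISG15, a ubiquitin-like modifier, from 4.82 and 3.69 CPM to 10.5 and 12 CPM (log2FC 1.37). TRIM22, a ubiquitin ligase, was expressed at a higher level and rose from 62.9 and 61.6 CPM to 153 and 145 CPM (log2FC 1.25, SE 0.11, adjusted p = 8.48e-05). TAP1, the peptide transporter of antigen presentation, had a log2FC of 1.00 and IFIT3, an RNA-binding antiviral protein, 0.92. IRF9, a factor that turns these genes on, had a log2FC of 0.25 (adjusted p = 0.149) and was not called. IFI6, ISG15, TRIM22, TAP1, IFIT3 and IRF9 were chosen after their values were seen. The immune cell markers CD68 and CD14 also rose, and their part in the interferon result was not tested. The summed immune marker level was 7.95 to 8.63 CPM in control, 17.2 to 17.6 CPM in MetaICM and 20.3 to 25.1 CPM at 6 days of ICM.

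The levels of 6 days of ICM differed among these genes. MX1 was at 1.72 and 2.07 CPM there, close to control, and the direct log2FC of MetaICM over it was 2.29. IFI6 was at 4.31 and 4.78 CPM (direct log2FC 1.08), whereas TRIM22 was at 169 and 188 CPM, above MetaICM (direct log2FC -0.27). Over the list, 19 genes were higher and 1 lower in MetaICM than at 6 days of ICM.

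The element through which interferon acts, the ISRE, is a pair of GAAA half-sites. Like the CHR, it was chosen after these results were known, and a match of the letters is not a binding site. Other promoter elements had been planned and were not looked for. An ISRE-like run (GAAANNGAAA, either strand, in the same 250-base promoters) occurred in 3.07% of all promoters and in 15 of 29 interferon-stimulated genes with a promoter in the table (51.7%). Of the 13 tested genes of the list with the run 5 were higher, and of the 12 without it 3 were higher. It was present in 2.81% of the promoters of all genes higher in MetaICM in 2.36% of those not called and in 3.23% of those lower. Stretches are shown for 4 genes that rose, with the run in capitals, from ISG15 (chr1:1013365-1013424, plus strand), IFI6 (chr1:27672251-27672310, minus strand), IFIT3 (chr10:89327850-89327909, plus strand) and TAP1 (chr6:32853798-32853857, minus strand), all GRCh38.p14.
ISG15: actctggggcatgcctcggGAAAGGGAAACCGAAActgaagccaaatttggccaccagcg
IFI6: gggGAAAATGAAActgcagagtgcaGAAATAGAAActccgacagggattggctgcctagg
IFIT3: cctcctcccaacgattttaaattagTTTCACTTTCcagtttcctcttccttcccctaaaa
TAP1: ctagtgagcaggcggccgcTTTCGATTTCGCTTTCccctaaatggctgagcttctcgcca
In IFIT3 and TAP1 the run is read as its reverse complement, and ISG15 and TAP1 each hold overlapping matches.

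**Figure D2:**
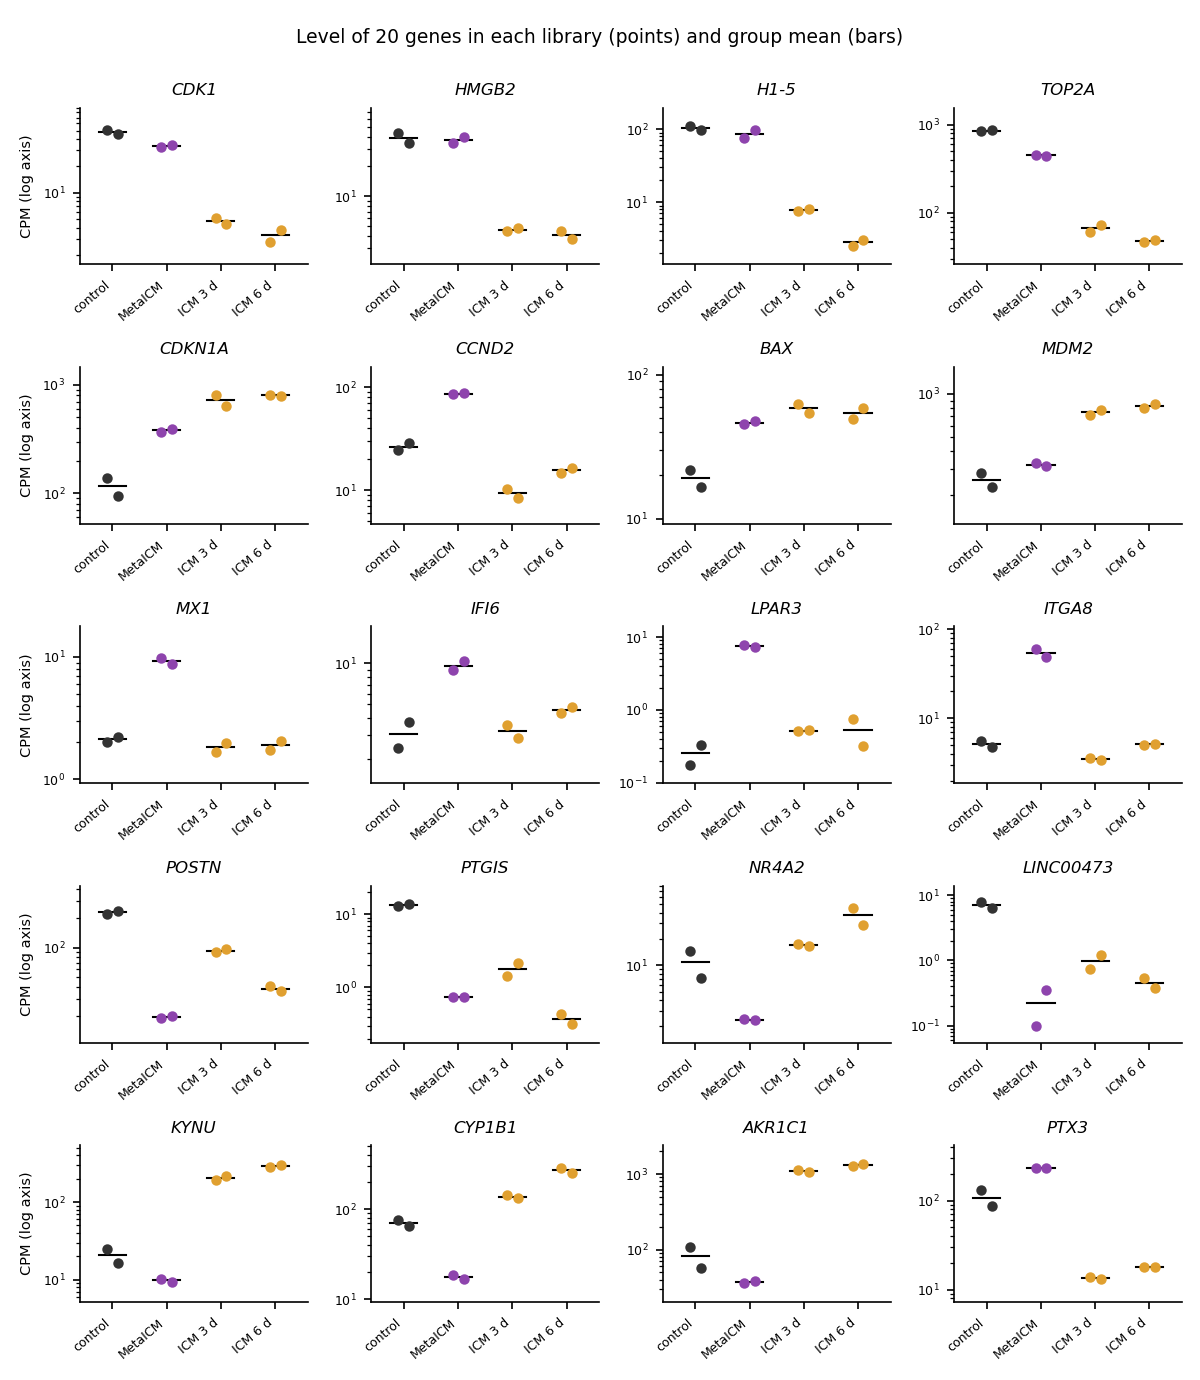
CPM on a log axis (y axis) in each library of control, MetaICM and ICM at 3 and 6 days (x axis) for 20 genes, 1 panel per gene, with points for libraries and bars for group means. CDKN1A and CCND2 rise from control to MetaICM (log2FC 1.69 and 1.71), POSTN and PTGIS fall (-3.56 and -4.15), and HMGB2 overlaps between control and MetaICM.

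Genes at low levels in control were among the largest increases. LPAR3, a receptor for lysophosphatidic acid (chr1:85277285-85358889), was at 0.179 and 0.328 CPM in control and at 7.79 and 7.26 CPM in MetaICM (log2FC 4.90, SE 0.35, adjusted p = 3.76e-05); at 6 days of ICM it was at 0.754 and 0.319 CPM, so that the MetaICM libraries stood apart from both (direct log2FC 3.79). ITGA8, the integrin alpha 8 subunit that binds fibronectin and nephronectin (chr10:15555948-15762334), was at 5.6 and 4.83 CPM in control and 59.5 and 49 CPM in MetaICM (log2FC 3.35, SE 0.17, adjusted p = 6.96e-06). It was at 5.06 and 5.15 CPM at 6 days of ICM, at the level of control. INMT, a methyltransferase for indole amines, rose from 2.38 and 3.2 CPM to 23 and 24.4 CPM (log2FC 3.09, SE 0.19), but it shares 750 exon bases with another annotated gene on its strand, between which reads may be split. ACKR3, the atypical chemokine receptor for CXCL12, rose from 0.893 and 0.41 CPM to 6.85 and 7.13 CPM (log2FC 3.33). TFAP2C, a transcription factor of early epithelia and germ cells, rose from 0.357 and 0.328 CPM to 3.23 and 3.8 CPM (log2FC 3.31), and DNAJC6, the clathrin uncoating factor auxilin, had a log2FC of 3.42. In each of these genes the MetaICM libraries lay above both control libraries by several-fold. Separation of the groups was a condition for naming them.

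Among genes already expressed well, TRPA1, a cation channel that senses irritants, rose from 390 and 383 CPM to 1287 and 1141 CPM (log2FC 1.63, SE 0.13, adjusted p = 5.16e-05); it shares 1234 exon bases with a gene on the opposite strand, and the counting is not stated to use strand. IGFBP7, a secreted IGF-binding protein, rose from 94.6 and 82.1 CPM to 229 and 262 CPM (log2FC 1.45), and C7, a terminal component of complement, from 20.2 and 24.8 CPM to 62.9 and 59.8 CPM (log2FC 1.44). At 6 days of ICM IGFBP7 stood at 68.3 and 70.6 CPM and C7 at 19.4 and 17.3 CPM, below control for both.

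Secreted regulators of the WNT pathway, which instructs cell fate through beta-catenin or polarity signalling, moved in both directions. Of 22 tested, 5 rose (22.7%) and 2 fell, with a median log2FC of 0.20, and without either MetaICM library 1 was lower. WNT16, a ligand known from replicative senescence, rose from 4.29 and 2.79 CPM to 24.2 and 25.9 CPM (log2FC 2.78, SE 0.20, adjusted p = 3.28e-05). WNT5B rose (log2FC 1.19), and WNT2, a ligand of lung mesenchyme, fell from 10.2 and 11.8 CPM to 2.98 and 4.02 CPM (log2FC -1.66). The ligands thus did not share a direction, whereas the antagonists that were called rose. DKK3 was at 136 and 106 CPM in control and 334 and 357 CPM in MetaICM (log2FC 1.5), and DKK2 had 2 counts in the control libraries together and 29 in MetaICM, a ratio of 9.78 (95% interval 2.47 to 84.5). SFRP1, a decoy receptor for WNT, had a log2FC of 1.11 and was chosen after its values were seen.

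In the BMP pathway 2 of 21 genes rose (9.52%) and 4 fell (19.0%), against 7.41% and 8.99% of all genes. With the offset 2 were lower, and both counts changed with single libraries left out. The ligand gene GDF6 rose from 4.76 and 4.26 CPM to 28.1 and 27.7 CPM (log2FC 2.6, SE 0.16, adjusted p = 1.25e-05), and BMP2 from 22.5 and 14.1 CPM to 40 and 39 CPM (log2FC 1.08). GREM1, a secreted antagonist of these ligands, fell from 765 and 838 CPM to 348 and 393 CPM (log2FC -1.13, SE 0.12). Of 18 genes of TGF-beta signalling 3 fell (16.7%) and none rose. Those that fell were the ligand TGFB3 (log2FC -1.13), the receptor TGFBR1 (-0.91) and the SMAD co-repressor SKIL (-1.20). Over left-out libraries the median of the list ran from -0.35 to -0.28, and its counts changed.

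Several genes of the extracellular matrix fell strongly. Of 34 elastic fibre and matricellular genes 10 fell (29.4%) and 3 rose, and of 28 collagens 6 fell (21.4%) and none rose. Without MetaICM replicate 2 there were 3 collagens lower and 1 matricellular gene higher, and without control replicate 1 there were 2 collagens higher; with the offset 14 matricellular genes were lower and 1 higher. POSTN, the matricellular protein periostin (chr13:38136719-38172981), was at 223 and 239 CPM in control and at 19.3 and 20.2 CPM in MetaICM (log2FC -3.56, SE 0.12, adjusted p = 2.43e-07); it was at 40.5 and 35.7 CPM at 6 days of ICM, so MetaICM stood below that group too (direct log2FC -0.95). ELN, which encodes elastin, fell from 8.57 and 3.69 CPM to 0.844 and 0.656 CPM (log2FC -3.08, SE 0.42), and BGN, the proteoglycan biglycan, from 28.3 and 44.3 CPM to 6.7 and 5.68 CPM (log2FC -2.56, SE 0.22). In both the control libraries differed from each other but stayed above MetaICM, as the naming rule required. THBS2, an inhibitor of vessel growth, fell from 163 and 129 CPM to 41.5 and 40.6 CPM (log2FC -1.85). The abundant FN1, which encodes fibronectin, was at 38142 and 32126 CPM against 18292 and 14448 CPM (log2FC -1.12, SE 0.20, adjusted p = 0.00353), and VCAN, the proteoglycan versican, had a log2FC of -1.52. FN1 and VCAN were chosen after their values were seen.

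Among the collagens, COL21A1, at 1.85 and 0.737 CPM in control and 0.198 and 0.175 CPM in MetaICM, had the lowest log2FC (-2.82; chosen after its values were seen). COL14A1, a collagen of the fibril surface, fell from 91 and 118 CPM to 34.5 and 35.9 CPM (log2FC -1.59, SE 0.14, adjusted p = 0.000103), and COL5A3, a minor fibrillar chain, from 34.9 and 21.1 CPM to 7.05 and 6.56 CPM (log2FC -2.07). COL1A1, the main chain of type I collagen, was at 8089 and 8714 CPM in control and 5763 and 6032 CPM in MetaICM, a log2FC of -0.53 (SE 0.15, adjusted p = 0.0287) below the size required of a call; it was chosen after its values were seen. Directly against 6 days of ICM, 14 of the collagens were higher in MetaICM and 4 lower. SULF1, which trims sulfate groups from heparan sulfate, fell from 529 and 424 CPM to 146 and 130 CPM (log2FC -1.80). Of the matrix metalloproteinases and their inhibitors 2 of 20 rose (10%) and 3 fell (15%), against 7.41% and 8.99% of all genes. Over left-out libraries the median of the list ran from -0.42 to -0.022, and the counts changed. MMP2, the gelatinase, fell from 402 and 470 CPM to 216 and 200 CPM (log2FC -1.09). TIMP3, a matrix-bound inhibitor, fell from 410 and 405 CPM to 210 and 205 CPM (log2FC -0.99).

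Of 22 contractile and smooth muscle genes 5 fell (22.7%) and 1 rose; without control replicate 1 or either MetaICM library there were 3 lower. MYH11, the smooth muscle myosin heavy chain, fell from 65.7 and 72.8 CPM to 13.8 and 12.3 CPM (log2FC -2.43, SE 0.13, adjusted p = 1.03e-05), although it shares 3816 exon bases with a gene on the opposite strand. The intermediate filament gene DES (log2FC -1.13) and the coactivator gene MYOCD (-0.89), which turns on smooth muscle genes together with SRF, fell as well. Among plasminogen activators and serpins 3 of 11 rose and 3 fell, with 1 lower without MetaICM replicate 1: PLAT, the tissue-type activator, rose from 367 and 257 CPM to 758 and 747 CPM (log2FC 1.25).

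Prostaglandin synthesis fell in 6 of 14 genes (42.9%) and rose in none, with a median log2FC of -0.24; without MetaICM replicate 2 there were 3 lower, and without control replicate 1 there were 2 higher. PTGIS, prostacyclin synthase (chr20:48120411-48184674), was at 12.9 and 13.6 CPM in control and at 0.744 and 0.743 CPM in MetaICM (log2FC -4.15, SE 0.24, adjusted p = 1.03e-05), the largest decrease in the list. PTGS2, the inducible cyclooxygenase, was at 90 and 29.8 CPM in control, a wide spread, and at 3.92 and 7.56 CPM in MetaICM (log2FC -3.39, SE 0.45, adjusted p = 0.00086). At 6 days of ICM PTGS2 was at 136 and 112 CPM and PTGIS at 0.431 and 0.319 CPM, so the pair of enzymes stood at opposite ends in that group and both low in MetaICM. PTGS1, the constitutive cyclooxygenase, had a log2FC of -0.79, and SLCO2A1, the prostaglandin transporter, -1.60; PTGS1 was chosen after its values were seen.

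Cytokines and chemokines of the senescent secretome did not share a direction: of 18 tested, 3 rose (16.7%) and 5 fell (27.8%), with a median log2FC of -0.32, and without control replicate 2 there were 9 lower. IL1A fell from 3.75 and 4.42 CPM to 0.496 and 0.612 CPM (log2FC -2.87, SE 0.33, adjusted p = 0.00039), and IL1B (log2FC -3.09) and IL33 (-2.52), of the same cytokine family, fell too. CXCL8, the neutrophil chemokine interleukin 8, was at 23.2 and 2.38 CPM in control, which lie far apart, and at 0.645 and 1.09 CPM in MetaICM (log2FC -3.91, SE 0.81, adjusted p = 0.00729). IL6, chosen after its values were seen, had a log2FC of -1.18 (adjusted p = 0.00967). Against this, CCL2, which attracts monocytes, rose from 7.86 and 6.8 CPM to 19.1 and 19.5 CPM (log2FC 1.38, SE 0.16, adjusted p = 0.000398), and CSF1, the macrophage growth factor, rose by a log2FC of 0.75. PTX3, a soluble pattern receptor, rose from 131 and 86.1 CPM to 233 and 234 CPM (log2FC 1.09, SE 0.16), whereas it was at 17.8 and 17.7 CPM at 6 days of ICM. IL32 was at 2.68 and 1.39 CPM against 2.53 and 3.15 CPM (adjusted p = 0.354). Among 18 NF-kB subunits and feedback genes 2 fell (11.1%, against 8.99% of all genes), REL (log2FC -0.86) and TNFAIP3 (-1.57). TNFAIP3 is an inhibitor of the pathway. RELA (adjusted p = 0.0945), NFKB1 (0.165) and NFKBIA (0.408) were not called. Over left-out libraries the median of the list ran from -0.10 to 0.23, and its counts changed. SPP1, the secreted protein osteopontin, had too few counts to test: it was at 0 and 0 CPM in control and 0 and 0.0437 CPM in MetaICM, against 19.8 and 23.5 CPM at 6 days of ICM.

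Immediate early genes, the transcription factors that answer growth factors within minutes, fell in 8 of 22 cases (36.4%) and rose in 2 (median log2FC -0.34). FOS was at 16.1 and 17.4 CPM in control and at 2.03 and 6.47 CPM in MetaICM (log2FC -1.97, SE 0.36, adjusted p = 0.00394), and EGR3 at 5.54 and 11.6 CPM against 0.298 and 1.14 CPM (log2FC -3.52). The orphan nuclear receptors NR4A1 (log2FC -1.79) and NR4A2 (-2.23) fell, the latter from 14.7 and 7.21 CPM to 2.43 and 2.36 CPM, whereas it was at 44.9 and 29.1 CPM at 6 days of ICM. JUND (log2FC 0.81) and FOSL1 (0.64) were the pair that rose, and both lost their calls with the offset, under which 9 of the list were lower and 0 higher. Without MetaICM replicate 2 there were 7 lower and 0 higher, and without MetaICM replicate 1 there were 5 lower. Beyond the list, LINC00473, a long noncoding RNA induced by cyclic AMP (chr6:166337536-166401527), had 131 and 77 counts in the control libraries and 2 and 8 in the MetaICM libraries (log2FC -4.91, SE 0.39, adjusted p = 5.8e-05). Of 22 EGFR ligands and MAPK feedback genes 5 rose and 4 fell, or 3 and 2 without MetaICM replicate 1: the ligand gene NRG1 fell from 220 and 206 CPM to 90.5 and 80.2 CPM (log2FC -1.34), and the ERK phosphatase gene DUSP6 rose from 58.8 and 42.4 CPM to 96.4 and 106 CPM (log2FC 0.98).

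Targets of NRF2, the factor that switches on antioxidant and detoxifying enzymes, hardly moved as a list: 2 of 34 rose (5.88%) and 4 fell (11.8%), with a median log2FC of -0.00. These counts moved with single libraries, to 5 higher and 3 lower without control replicate 1, 0 and 6 without control replicate 2, 2 and 2 without MetaICM replicate 1 and 0 and 1 without MetaICM replicate 2. AKR1C1, an aldo-keto reductase, fell from 109 and 57.3 CPM to 36.6 and 38.3 CPM (log2FC -1.17, SE 0.23, adjusted p = 0.00537), and it was at 1293 and 1340 CPM at 6 days of ICM. SLC7A11, the cystine importer, fell from 845 and 785 CPM to 529 and 503 CPM (log2FC -0.68), a call lost with the offset for GC content and exon length. NQO1, a quinone reductase, was at 291 and 244 CPM in control and 299 and 312 CPM in MetaICM (adjusted p = 0.287), against 1681 and 1671 CPM at 6 days of ICM. HMOX1, heme oxygenase, was at 36.2 and 14.5 CPM against 19.8 and 18.3 CPM, within the control pair (adjusted p = 0.291). Directly against 6 days of ICM 29 of the list were lower in MetaICM and none higher, with a median log2FC of -1.80, and against 3 days 31 were lower with a median of -1.63. NQO1 and HMOX1 were chosen after their values were seen.

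The aryl hydrocarbon receptor, a sensor of planar aromatic compounds, and the kynurenine pathway that makes ligands for it were represented by 11 genes, of which 4 fell (36.4%) and none rose; without either MetaICM library there were 2 lower. CYP1B1, the receptor's best known target in fibroblasts, fell from 75.1 and 64.5 CPM to 18.8 and 16.8 CPM (log2FC -1.99, SE 0.13, adjusted p = 2.4e-05). KYNU, which cleaves kynurenine, fell from 25 and 16.4 CPM to 10.2 and 9.27 CPM (log2FC -1.11, SE 0.20, adjusted p = 0.00349). At 6 days of ICM these genes lay on the other side of control, CYP1B1 at 284 and 254 CPM and KYNU at 283 and 302 CPM, and the direct log2FC of MetaICM over that group was -3.92 and -4.91.

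Some genes of energy metabolism and protein turnover were higher by small amounts, and most members of these lists were called in neither direction. Of 51 nuclear genes of oxidative phosphorylation 20 rose (39.2%) and none fell, with a median log2FC of 0.51. NDUFB7, a complex I subunit, was at 11 and 7.37 CPM in control and 17 and 19.9 CPM in MetaICM (log2FC 0.97, SE 0.19), and COX8A, a subunit of cytochrome c oxidase, at 22.3 and 15.4 CPM against 32.8 and 37 CPM (log2FC 0.86). Both lost their call with the offset for GC content and exon length, under which 10 of the list were higher, and without MetaICM replicate 2 there were 2. Of 36 proteasome genes 8 rose (22.2%), 1 with the offset, 0 without MetaICM replicate 2, 2 without control replicate 2 and 12 without control replicate 1. Of 30 glycolysis and hypoxia genes 7 rose (23.3%) and none fell, among them the glucose transporter SLC2A1, from 333 and 251 CPM to 530 and 502 CPM (log2FC 0.81), and PGAM1, phosphoglycerate mutase (0.78); with the offset 3 were higher, without MetaICM replicate 2 there were 2, without control replicate 2 there were 4 with 2 lower, and without control replicate 1 there were 12. Cholesterol synthesis rose in 7 of 25 genes (28.0%), led by the sterol reductase gene TM7SF2 (log2FC 1.04), and in 4 with the offset or without either MetaICM library, and in 3 without control replicate 2. Of 77 cytosolic ribosomal protein genes 2 rose, with a median of 0.28; there were 13 without control replicate 1, 8 without MetaICM replicate 1, and 0 without control replicate 2, without MetaICM replicate 2 or with the offset. Lysosome and autophagy genes rose in 6 of 34 cases and fell in 1, among them the hydrolase gene NAGLU (log2FC 0.91), whose call was lost with the offset; there were 13 higher without control replicate 1, 4 without control replicate 2 and 3 with the offset, and 0 lower without control replicate 2 or either MetaICM library.

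Genes of the stress programmes moved in either direction. Of 24 heat shock genes 2 rose (8.33%, against 7.41% of all genes). They were HSPB1, from 56.5 and 43.4 CPM to 97.5 and 122 CPM (log2FC 1.11), and CRYAB (2.46), both small heat shock proteins. Of 25 genes of the ATF4 amino acid response 1 rose and 5 fell (20%, against 8.99% of all genes), with CTH, which makes cysteine from cystathionine, at a log2FC of -1.20; without MetaICM replicate 2 there were 3 lower. Of 22 endoplasmic reticulum chaperones and unfolded protein response genes 1 rose and 1 fell, and of 5 metallothionein and zinc transport genes 1 rose; without control replicate 1 there were 6 and 0 of the former, and without either MetaICM library 0 of the latter. In the IGF axis 2 of 13 rose and 2 fell (15.4% each). The abundant IGFBP5 fell from 21436 and 21869 CPM to 12735 and 11990 CPM (log2FC -0.83). Of the remaining lists, E2F and RB family genes had 2 lower of 15 (13.3%), and fatty acid synthesis 2 higher and 1 lower of 20 (10% and 5%). YAP and TEAD targets had 3 higher and 3 lower of 24 (12.5% each). Notch genes had 1 and 1 of 11 (9.09% each), and circadian clock genes 1 lower of 16 (6.25%). Each of these small counts changed with 1 library or more left out, for YAP and TEAD to 2 higher and 0 lower without MetaICM replicate 1 and to 2 and 1 without MetaICM replicate 2, and for E2F and RB to 0 lower without either MetaICM library.

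**Figure D3:**
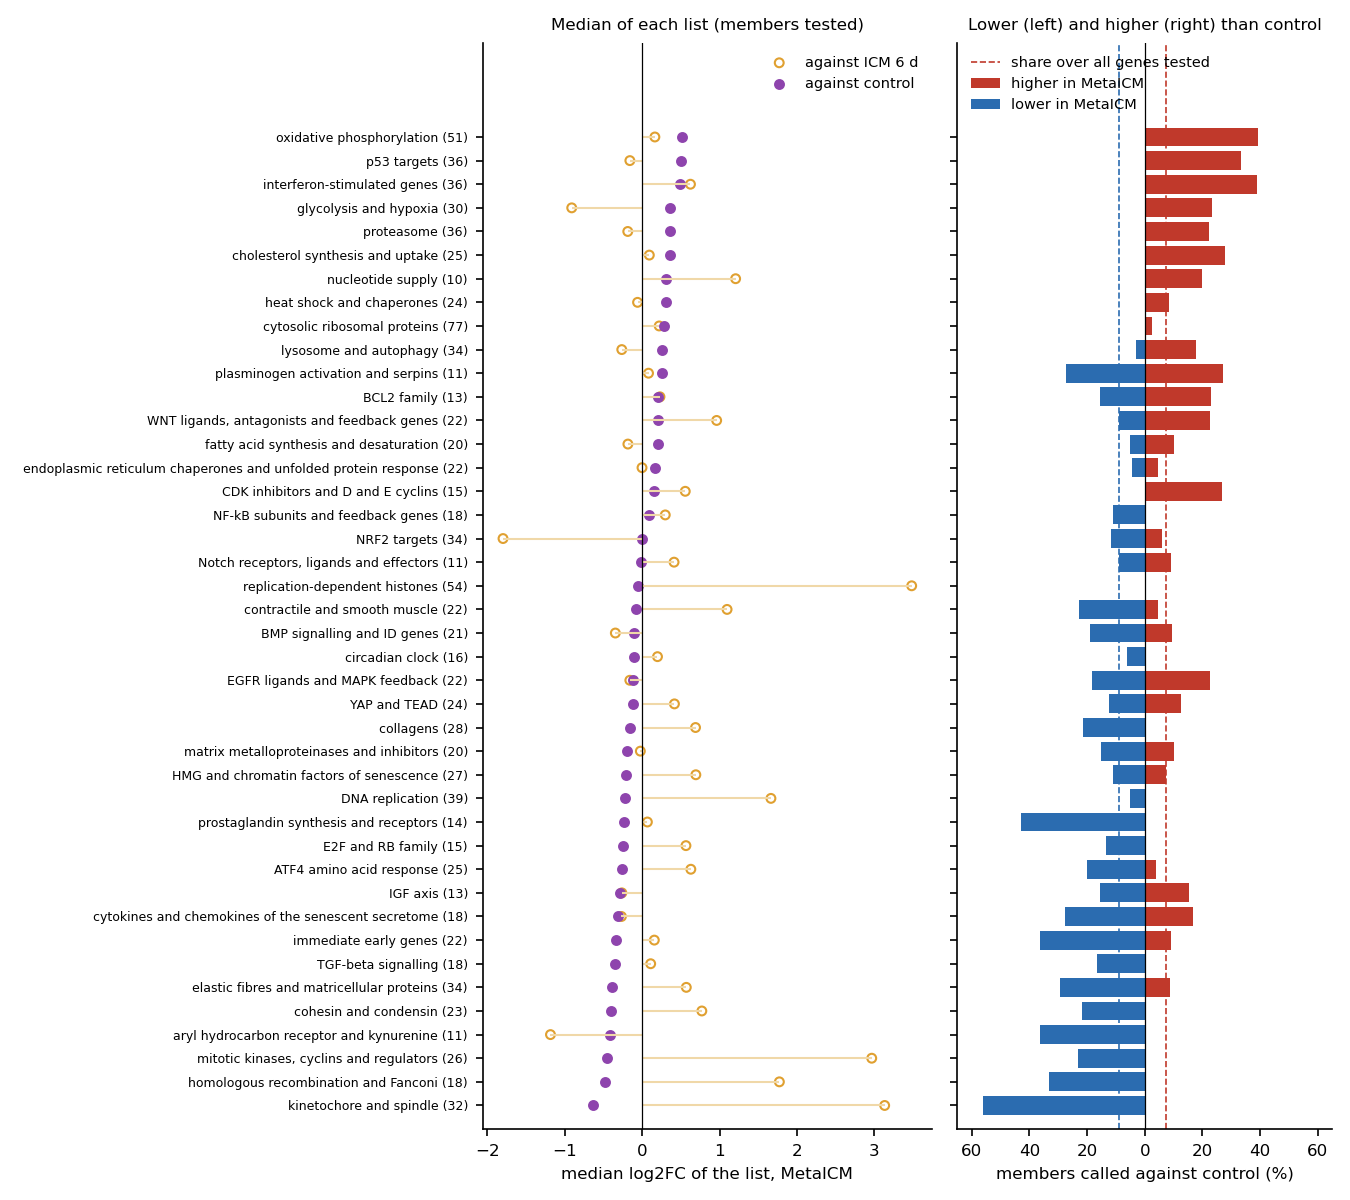
Left, median log2FC of each gene list (y axis, number of members tested in parentheses) for MetaICM over control and over 6 days of ICM (x axis); right, the share of members called lower or higher than control in percent, with dashed lines at the shares over all genes tested (8.99% and 7.41%). Kinetochore and spindle genes lie lowest of the cell cycle lists (median -0.64), while oxidative phosphorylation (0.51), p53 targets (0.50) and interferon-stimulated genes (0.49) lie to the right.

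The direction of change was related to gene structure. Among 4263 genes that span under 10 kb, 12.8% were higher and 6.85% lower in MetaICM (median log2FC 0.17), and among 324 genes that span over 400 kb, 4.01% were higher and 26.5% lower (median -0.36). The difference held against either control library for the longest genes, with medians of -0.30 and -0.37, while the control libraries differed from each other by -0.03 there. For genes under 10 kb these medians were 0.11 and 0.24, and the control libraries differed by 0.13. By GC content of the exons, the median log2FC ran from -0.19 in the quintile of genes with the lowest GC to 0.27 in that with the highest. The control libraries also differed along this axis, from -0.09 to 0.24 (replicate 1 over replicate 2), and against control replicate 1 alone the medians of MetaICM ran from -0.11 to 0.17. With an offset for GC content and exon length, chosen after this trend was seen, 759 genes were higher and 1231 lower, and 61 of the longest genes were lower in place of 86. Of the genes under 10 kb, 227 were then higher and 333 lower, with a median of 0.043, so their excess of higher genes did not remain.

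**Figure D4:**
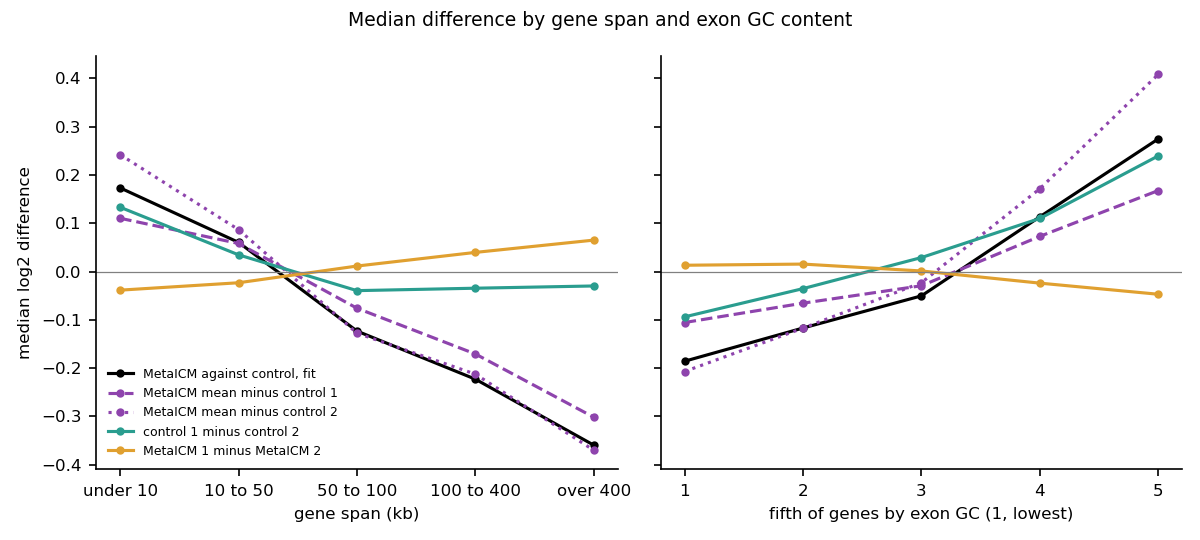
Median log2FC (y axis) by bin of gene span in kb and by quintile of exon GC content (x axes), for MetaICM over control, over each control library, and between the paired libraries of control and of MetaICM. MetaICM over control falls from 0.17 to -0.36 with span and rises from -0.19 to 0.27 with GC, and the line between the control libraries also slopes with GC (-0.09 to 0.24).

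Antisense, long intergenic and microRNA genes held larger shares of lower genes than the table as a whole, and small nucleolar and Cajal body RNA genes did not. Of 630 genes named as antisense 118 were lower (18.7%) and 15 higher, of 235 long intergenic noncoding RNAs 35 (14.9%) and 9, and of 245 genes named as microRNAs or their hosts 36 (14.7%) and 1, against 8.99% lower over all genes; the counting is not stated to use strand, so reads of an antisense gene and of its partner cannot be told apart. With the offset 122 antisense genes were lower. Of 329 small nucleolar and Cajal body RNA genes 15 were lower (4.56%) and 5 higher. All of these classes lay at low levels, with a median of 2.06 CPM for antisense, 1.465 CPM for long intergenic, 1.09 CPM for microRNA and 2.31 CPM for small nucleolar and Cajal body genes. Zinc finger genes named ZNF were near the background, 43 lower (8.45%) and 14 higher of 509.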

How the data were processed

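Factory RNA-Seq of 8 IMR90 libraries was analysed as the raw read counts per gene that the authors deposited. According to the submitters' processing notes and the file headers, reads were aligned with STAR 2.6.0c to GRCh37 and the authors counted properly paired primary alignments over RefSeq exons (hg19) with featureCounts 1.6.3; no strand setting is named. The deposited counts were used as they stand. Counts were scaled with TMM factors over the 8 libraries to give CPM.

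MetaICM was compared with control, and with ICM at 6 and 3 days, by the edgeR 4.0.16 quasi-likelihood test in R 4.3.3, on the 2 libraries of each group of the pair, after removal of genes without at least 10 counts (filterByExpr), with Benjamini-Hochberg adjustment over all genes tested. A gene was called at an adjusted p under 0.05 and an absolute log2FC over 0.6; SE is the standard error of the log2FC. Depth was 12095123 to 23166405 counts per library, and with 2 libraries a group the error of each value is itself poorly known. On counts simulated for MetaICM against control with 15659 genes, 92.2% of 103 genes changed 2-fold and all of 97 changed 4-fold were recovered, with 6 false calls. The changed genes were drawn only from the better expressed ones, the spread was taken from the fit, and no GC trend was simulated. These figures thus do not cover genes at low levels, such as OAS2, MX2, DKK2, ELN and COL21A1. Nor do they cover the GC difference between the control libraries. Intervals of count ratios cover counting error only.

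The comparison, the 47 gene lists (1176 genes, of which BMAL1 was not matched) and the naming rule were chosen with earlier results of these data known. Named were the senescence genes that the paper lists, and called genes with large changes. The latter were required to have MetaICM and control libraries that did not overlap, and at least 10 counts in each library of the higher group. They were the 10 largest changes in each direction among all genes, and the same among genes above 50 CPM. Up to 4 genes per list and direction were added under the same conditions. For a list without a called gene the most abundant tested member was named, and others are marked. Alternatives were DESeq2 1.42.0, other scalings and filters, a replicate block, thinned counts, left-out libraries, a stricter adjusted p and an offset for GC content and exon length fitted to each library. Promoters were taken from a RefSeq table (GRCh38.p14) matched by symbol, and their coordinates are on that build while gene positions are on hg19. A few genes that the rule picked are not reported here.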

Additional observations from a re-analysis of the deposited data

Results flagged for a closer look

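Among the senescence genes that the study lists and the largest changes above 50 CPM, 7 genes were called in MetaICM against control and had both libraries of 6 days of ICM on the other side of both control libraries. They were picked for this pattern, so the difference between MetaICM and 6 days of ICM is given as a description. C7 (log2FC of MetaICM over 6 days of ICM 1.73), CCND2 (2.48), IGFBP7 (1.81) and PTX3 (3.71) were above control in MetaICM and below it with ICM. CYP1B1 (log2FC -3.92), KYNU (-4.91) and LXN (-2.51) were below control in MetaICM and above it with ICM. LXN, a carboxypeptidase inhibitor, was at 83.5 and 103 CPM in control, 26 and 26.4 CPM in MetaICM and 164 and 133 CPM at 6 days of ICM. Genes named for their lists were not searched for this pattern, and some also showed it. AKR1C1, AKR1B10, AKR1C2, CTH, COL10A1, NR4A2 and PTGS2 had MetaICM below and 6 days of ICM above both control libraries. CSF1 and CHAC1 had the reverse. Other genes of this kind were not counted. With 2 libraries a group, no test for a single outlying library was possible.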

How the results depend on the processing

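Apart from the results given here, no named gene turned its sign under the alternatives run. Nor did any other list median move by more than the SD of that median over the pairings of a MetaICM with a control library. Of 209 named genes, 7 lost their call with DESeq2, 0 with its size factors in edgeR 51 with the offset for GC content and exon length, and 10 (without control replicate 1) to 66 (without MetaICM replicate 2) with a library left out; the cause was not tested. DESeq2 called 950 genes higher and 1140 lower. An adjusted p under 0.01 left 664 and 868, and the offset 759 higher. Leaving out single libraries gave 469 to 2116 higher and 580 to 1970 lower genes, fewest without MetaICM replicate 2 (469 and 580), 807 lower without MetaICM replicate 1 and most without control replicate 1; the lone library left is then taken to vary like the other group. The correlation across genes of same-numbered deviations from the group means was -0.05. With 2 libraries a group this single value cannot show whether libraries of the same number belong together. With a replicate block 1296 genes were higher and 1527 lower. The counts against ICM at 6 and 3 days stayed within 1.5 times under every alternative run.

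With the offset, list medians became -0.57 for kinetochore and spindle, 0.041 for nucleotide supply, -0.12 for E2F and RB, -0.42 for homologous recombination, -0.076 for HMG and chromatin factors, -0.31 for cohesin and condensin, -0.25 for aryl hydrocarbon receptor and kynurenine, -0.32 for elastic fibres, 0.036 for EGFR ligands and MAPK feedback (a turned sign), -0.51 for prostaglandin synthesis and -0.058 for the circadian clock. With 10 counts in every library immediate early genes had -0.17. Over left-out libraries the medians ran from -0.70 to -0.57 for kinetochore and spindle, -0.28 to -0.20 for E2F and RB, 0.086 to 0.52 for CDK inhibitors and cyclins, -0.23 to -0.088 for HMG and chromatin factors, -0.48 to -0.40 for cohesin and condensin, 0.090 to 0.48 for BCL2, -0.10 to 0.23 for NF-kB, 0.43 to 0.58 for interferon, -0.043 to 0.21 for NRF2, 0.14 to 0.42 for heat shock, 0.29 to 0.49 for cholesterol, 0.060 to 0.24 for fatty acids, 0.15 to 0.52 for lysosome, -0.21 to -0.087 for collagens, -0.42 to -0.022 for metalloproteinases, -0.35 to -0.28 for TGF-beta, 0.037 to 0.42 for WNT, -0.40 to -0.064 for IGF, -0.16 to 0.078 for EGFR and MAPK, -0.34 to -0.18 for immediate early genes, -0.33 to -0.17 for prostaglandin synthesis and -0.16 to -0.037 for the clock. The sign turned for NF-kB without control replicate 2, for NRF2 without control replicate 1, and for EGFR and MAPK without control replicate 1 or MetaICM replicate 1 (0.072). Of single genes, none of them called, the log2FC ran from -0.082 (without MetaICM replicate 2; also below 0 without control replicate 2) to 0.17 for HMGB1, -0.23 to 0.11 for HMGB2 (without control replicate 1; 0.047 without MetaICM replicate 1) and -0.11 (without control replicate 2) to 0.84 for NFKBIA.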

Other observations

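Outside the gene lists, well expressed genes with large changes included several of cell adhesion and metabolism. ITGB8, the integrin beta 8 subunit that releases active TGF-beta, was at 74.6 and 108 CPM in control and at 19.6 and 19.2 CPM in MetaICM (log2FC -2.25, SE 0.17, adjusted p = 5.16e-05), and at 22.7 and 15.6 CPM at 6 days of ICM; it shares 226 exon bases with a gene on the opposite strand. NRXN3, a neurexin of cell contacts and one of the long genes, was at 99.5 and 102 CPM against 27.1 and 24.9 CPM (log2FC -1.97, SE 0.12). DIO2, which activates thyroid hormone and shares 420 exon bases with a gene on the opposite strand, fell from 74.1 and 70.9 CPM to 20.4 and 18.5 CPM (log2FC -1.91). In each of the 3 genes both MetaICM libraries lay below control, as the naming rule required. The direct log2FC of MetaICM over 6 days of ICM was 0.02 for ITGB8, 0.30 for NRXN3 and -0.50 for DIO2.

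AOX1, an aldehyde oxidase of xenobiotic metabolism, rose from 23.9 and 18.1 CPM to 60.6 and 61.7 CPM (log2FC 1.52, SE 0.14), and PPP1R3C, which targets a phosphatase to glycogen, from 19.9 and 16.5 CPM to 55.5 and 52 CPM (log2FC 1.54, SE 0.13). PSG4, a pregnancy-specific glycoprotein from a family of near-identical copies between which reads may be split, rose from 22.6 and 16.1 CPM to 60.3 and 53.5 CPM (log2FC 1.53). AOX1 was at 92.5 and 99.3 CPM and PSG4 at 74.9 and 82.7 CPM at 6 days of ICM, above MetaICM.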
